A study of Mus musculus with 18 samples.

Results

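The transforming growth factor beta (TGF-beta) genes and their activin relatives are described here across a time course of myocardial infarction in the mouse. The set holds 10 genes out of 30583 in the count table: the ligands Tgfb1, Tgfb2 and Tgfb3, the matrix protein gene Ltbp2, the receptors Tgfbr1 and Tgfbr2, the intracellular mediators Smad3 and Smad7, and the activin subunits Inhba and Inhbb. They were taken by name, with earlier results of these data known. All 10 passed the filter on low counts that left 16311 genes for testing. RNA was sequenced from 18 male C57BL/6JR mice aged 12 weeks, 3 in each of 6 groups, 1 library per mouse. In 5 groups infarction was produced by tying off the left anterior descending artery of the heart, and the mice were killed 10 min or 1, 6, 24 or 72 h later. Sham mice were operated on alike, but the suture was left untied. The 1 sham group of 3 mice served for all 5 times, so ligation and time since surgery cannot be told apart. All mice received pentobarbital and, before death, isoflurane, and the labels name no transgene or deletion. RNA came from whole tissue of the left ventricle, after ligation from the infarcted region. Which region was taken in the sham mice, which had no infarct, is not stated here. The labels give cardiomyocytes as the cell type, but no separation of cells is described.

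TGF-beta is secreted in a latent form that is stored in the extracellular matrix by latent TGF-beta binding proteins and released by proteases, thrombospondin or integrins. Freed ligand binds TGFBR2, which recruits and activates TGFBR1, and TGFBR1 phosphorylates SMAD2 and SMAD3, which enter the nucleus with SMAD4. SMAD7 is an inhibitor of the receptors and is itself induced by the pathway. Activins are dimers of beta subunits that use their own receptors but the same SMAD2 and SMAD3, and follistatins bind and neutralise them. In the infarcted heart the pathway is best known for restraining inflammation and for turning fibroblasts into the myofibroblasts that build the scar.

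Coordinates are those of GENCODE M21 on GRCm38, and each gene is protein coding. Tgfb1 (ENSMUSG00000002603) lies at chr7:25687002-25705077 on the plus strand, Tgfb2 (ENSMUSG00000039239) at chr1:186622792-186705989 on the minus strand and Tgfb3 (ENSMUSG00000021253) at chr12:86056745-86079041 on the minus strand. Ltbp2 (ENSMUSG00000002020) lies at chr12:84783212-84876532 on the minus strand. Tgfbr1 (ENSMUSG00000007613) lies at chr4:47353222-47414931 on the plus strand and Tgfbr2 (ENSMUSG00000032440) at chr9:116084293-116175360 on the minus strand. Smad3 (ENSMUSG00000032402) lies at chr9:63646767-63757994 on the minus strand and Smad7 is ENSMUSG00000025880. Inhba (ENSMUSG00000041324) lies at chr13:16011851-16031621 on the plus strand and Inhbb (ENSMUSG00000037035) at chr1:119415465-119422248 on the minus strand. Use of strand in the counting is not given in the sources used here, so reads of a gene and of an antisense partner cannot be told apart. The largest such overlap was that of Ltbp2 with D030025P21Rik, over 9.3% of the Ltbp2 exon bases, and the partner had at most 27 counts in a library.

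The 250 bases before the start of 4 of these genes are shown as 2 pairs of related genes. Inhba and Inhbb were both higher from 6 h on. Tgfb1 and Tgfb2 first passed the test at different times, but both were higher at 24 and 72 h. The log2 levels of Tgfb1 and Tgfb2 correlated over the 18 libraries (Pearson r = 0.76). The windows were taken from RefSeq on GRCm38.p6, and each is written 5′ to 3′ in the direction of its gene. They are those of Tgfb1 (chr7:25686752-25687001, plus strand), Tgfb2 (chr1:186705990-186706239, minus strand), Inhba (chr13:16011601-16011850, plus strand) and Inhbb (chr1:119422249-119422498, minus strand). Capitals mark matches to CAGAC, known as the Smad box, to an E-box or to a TATA box, whose letters are given below.
Tgfb1: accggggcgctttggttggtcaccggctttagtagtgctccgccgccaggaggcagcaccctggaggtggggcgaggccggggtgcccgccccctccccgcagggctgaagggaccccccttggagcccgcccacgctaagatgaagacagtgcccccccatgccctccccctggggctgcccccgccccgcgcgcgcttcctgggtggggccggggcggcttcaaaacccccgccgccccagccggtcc
Tgfb2: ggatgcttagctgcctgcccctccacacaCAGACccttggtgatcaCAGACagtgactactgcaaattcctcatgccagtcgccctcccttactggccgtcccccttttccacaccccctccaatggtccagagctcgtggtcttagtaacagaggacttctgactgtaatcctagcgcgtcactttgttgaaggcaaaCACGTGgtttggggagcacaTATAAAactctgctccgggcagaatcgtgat
Inhba: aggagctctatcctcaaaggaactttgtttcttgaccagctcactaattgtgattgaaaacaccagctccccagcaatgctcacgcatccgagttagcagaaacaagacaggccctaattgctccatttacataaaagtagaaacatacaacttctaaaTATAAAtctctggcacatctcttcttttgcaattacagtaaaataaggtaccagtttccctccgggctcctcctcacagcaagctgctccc
Inhbb: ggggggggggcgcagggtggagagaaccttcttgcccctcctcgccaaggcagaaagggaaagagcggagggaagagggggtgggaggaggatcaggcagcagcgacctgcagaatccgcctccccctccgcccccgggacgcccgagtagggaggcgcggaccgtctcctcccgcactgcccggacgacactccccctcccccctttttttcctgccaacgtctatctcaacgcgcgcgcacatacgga
The Tgfb2 window held 2 Smad boxes, which started 221 and 204 bases before the start, an E-box at 51 and a TATA box at 31. The Inhba window held a TATA box at 91 bases before the start. In the Tgfb1 and Inhbb windows none of the 7 motifs searched was matched. These 2 windows were also the richest in G and C of the 4, at 75.2% for Tgfb1 and 68.0% for Inhbb, against 53.6% for Tgfb2 and 43.2% for Inhba and a median of 52.4% over all windows.

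The search covered the 250 bases before each start. RefSeq windows were found for 8 of the 10 genes, with 9 windows because Tgfbr1 had 2 starts; Tgfb3 and Smad7 were not matched. CAGAC, searched on both strands, was in 4 of the 9 windows (Tgfb2, Tgfbr1, Tgfbr2 and Ltbp2) and in 42.2% of all 32851 RefSeq windows of 250 bases. The Smad palindrome GTCTAGAC, the AP-1 site TGANTCA, the cyclic AMP response element TGACGTCA and the NF-kB site, each on both strands, were in 0 of the 9; over all windows they were in 0.167%, 6.75%, 1.55% and 1.41%. The TATA box TATAAA, searched on the strand of the gene, was in 7.59% of all windows, and the E-box CACGTG, which reads the same on both strands, in 6.02%; these 2 motifs were added after the sequences were seen. No motif overlapped another in the windows shown.

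Levels are given as CPM (counts per M counts, where M is mega) after TMM scaling, which takes most genes as unchanged between libraries. At 72 h that is uncertain, since 66.4% of all genes tested differed from sham (edgeR adjusted p under 0.05). The deposited libraries held 18.2 to 25.1 M counts. Each mean is over 3 mice with its SD. Log2 fold changes with standard errors (SE) come from 1 edgeR quasi-likelihood model of all 18 libraries, and a gene was called at a Benjamini-Hochberg adjusted p under 0.05 over the 16311 genes. Levels of different genes are compared only per kilobase of exon, counting every annotated exon base of a gene. Rankings between genes depend on that choice of length, and no other was tried. Each group was 3 separate mice per the series' design, so p-values measure the spread between mice.

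The makeup of the libraries changed with time, and 2 of them stood apart from their groups. The summed level of 7 cardiomyocyte markers was 46700 to 51600 CPM in sham and 11100 to 14900 CPM at 72 h, and the 7 were all lower at 72 h. The 7 macrophage and monocyte markers summed to 183 to 205 CPM in sham and 2750 to 3550 CPM at 72 h (7 of 7 higher), the 3 myofibroblast markers to 113 to 168 and 1960 to 2100 CPM (3 of 3 higher), and the 6 fibroblast markers to 1630 to 1880 and 3770 to 4460 CPM (5 of 6 higher, 1 lower). The 5 neutrophil markers summed to 2.31 to 3.58 CPM in sham, 96.6 to 733 at 6 h, 35.1 to 652 at 24 h and 45 to 55.7 at 72 h. The 5 platelet markers summed to 18.2 to 19.8 CPM in sham and 141 to 156 at 72 h (3 of 5 higher), and in their groups were highest in replicate 1 at 6 h (69.8 CPM) and replicate 3 at 24 h (104 CPM). The 3 markers of cycling cells went from 1.19 to 2.62 CPM in sham to 149 to 226 at 72 h (3 of 3 higher), the 4 mural markers from 827 to 867 to 358 to 418 CPM (4 of 4 lower) and the 5 endothelial markers from 1090 to 1220 to 655 to 877 CPM (4 of 5 lower). Beside these counts, 66.4% of all genes tested were called at 72 h, 34.2% higher and 32.2% lower. The 3 of 5 platelet markers called were thus not above the share of all genes. No marker of these 9 lists was at 0 throughout a group. Replicate 1 at 6 h carried the highest neutrophil sum of its group and 151 CPM of 3 atrial markers, against 1.47 to 3.4 CPM in the other 17 libraries. Replicate 3 at 24 h carried the neutrophil sum of 652 CPM. Mitochondrially encoded genes took 17.7 to 27.4% of the counts up to 24 h and 8.41 to 10.5% at 72 h. In whole tissue, fewer cells of a type and less RNA per cell cannot be told apart, and the part of these shifts in the results below was not tested. With library totals as the scale, the median gene was at a log2 fold change of 0.61 at 72 h (0.03 with TMM), so changes below are relative to the median gene.

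All 10 genes differed between groups (edgeR F test over the 5 contrasts with sham, adjusted p between 6.87e-12 for Ltbp2 and 0.00503 for Smad3), beside 78.4% of all genes. At 10 min and at 1 h edgeR called no member, where 0.0736% and 0.294% of all genes were; at an unadjusted p under 0.05 there were 0 members at 10 min and 1 at 1 h, Smad7. DESeq2 called 0 members at 10 min and 1, Smad7, at 1 h. At 6 h, 6 members were higher than sham and 1 lower (28.4% of all genes called, 16.3% higher and 12.2% lower). At 24 h, 7 were higher and 0 lower (43.8% of all genes called, 23.7% higher and 20.2% lower). At 72 h, 9 were higher and 0 lower (66.4% of all genes called, 34.2% higher and 32.2% lower). For the 10 genes, the log2 fold change was in the median 0.99, 0.71 and 1.61 at 6, 24 and 72 h, where all genes had -0.01, 0.01 and 0.03. Between consecutive times, 0 members were called from 10 min to 1 h (0.307% of all genes), 6 were higher at 6 h than at 1 h (24.5% of all genes called, 14.5% higher), 2 were higher and 2 lower at 24 h than at 6 h (27.8%, 14.2% higher and 13.7% lower), and 5 were higher and 1 lower at 72 h than at 24 h (50.5%, 24.4% higher and 26.1% lower). Between 72 and 6 h, 5 were higher and 2 lower (63% of all genes called, 31.3% higher and 31.6% lower). Without replicate 1 at 6 h and replicate 3 at 24 h together, an alternative chosen after seeing the data, 7 members were called at 6 h, 6 at 24 h and 9 at 72 h, beside 23.5%, 35.5% and 69.1% of all genes.

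**Figure D1:**
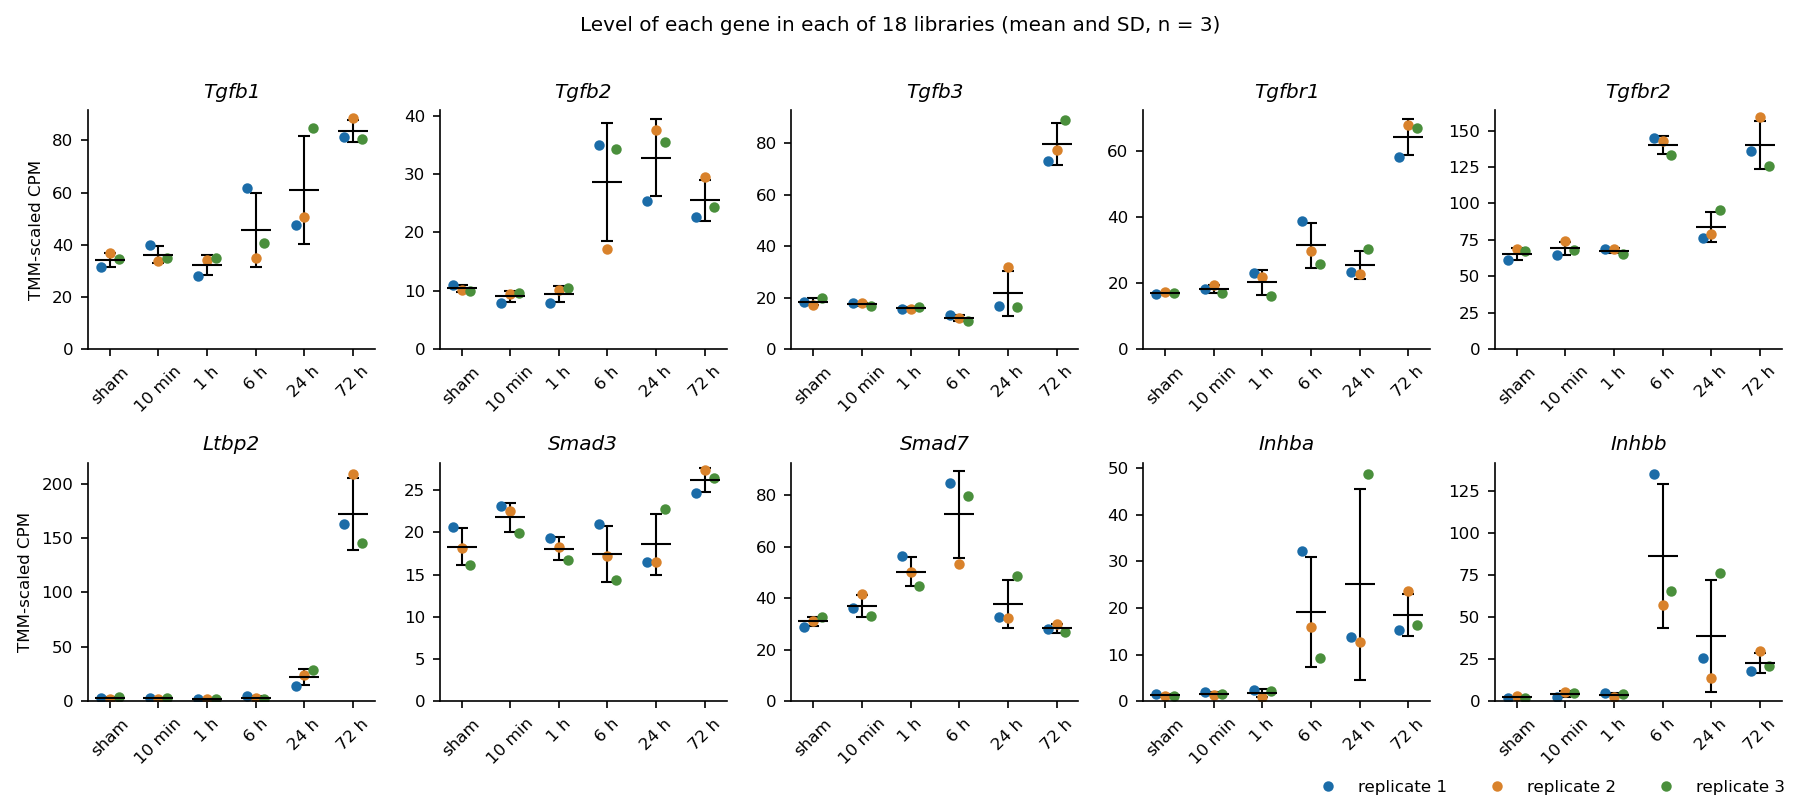
TMM-scaled CPM of the 10 genes (y axis, from 0, its own scale per gene) in sham and at 5 times after ligation (x axis); points are mice coloured by replicate number, and bars are the mean and SD of 3. Ltbp2 and Tgfb3 stand highest at 72 h, Smad7 and Inhbb at 6 h, and the 24 h points of Inhba and Inhbb are spread between 12.8 and 48.8 and between 13.6 and 76.4 CPM.

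Among the 3 ligands, Tgfb1, the most studied isoform, was higher than sham at 24 and 72 h. It measured 31.5, 36.7 and 34.5 CPM in the sham mice, 39.8, 33.9 and 34.9 at 10 min, 27.9, 34.1 and 34.8 at 1 h, 61.6, 34.8 and 40.5 at 6 h, 47.7, 50.7 and 84.9 at 24 h, and 81.3, 88.5 and 80.7 at 72 h. The 24 h and 72 h mice all lay above the sham mice, while at 6 h only replicates 1 and 3 did. The log2 fold change was 0.41 ± 0.21 (SE) at 6 h and not called (edgeR adjusted p = 0.149), 0.83 ± 0.21 at 24 h (edgeR adjusted p = 0.00405) and 1.29 ± 0.21 at 72 h (edgeR adjusted p = 3.93e-05), a 2.44-fold rise. Neighbouring times from 6 h on overlapped and were not called with TMM and all mice. With library totals as the scale both steps were called, at 0.74 from 6 to 24 h (edgeR adjusted p = 0.00608) and 0.84 from 24 to 72 h (edgeR adjusted p = 0.00122), and the later step was also called with at least 10 counts required in every library (0.51, edgeR adjusted p = 0.0446). Without replicate 3 at 24 h, 72 h exceeded 24 h by 0.76 (edgeR adjusted p = 0.00105) and the 6 h difference from sham passed (edgeR adjusted p = 0.0474), and without replicate 1 at 6 h, 24 h exceeded 6 h by 0.70 (edgeR adjusted p = 0.0133). With TMM and all mice, 72 h exceeded 6 h by 0.87 ± 0.20 (edgeR adjusted p = 0.00137), a contrast added after seeing the data. The 2 libraries that stood apart held the highest Tgfb1 level of their groups. Without both, the log2 fold change was 0.14 at 6 h and 0.52 at 24 h, still called at 24 h.

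Tgfb2, an isoform best known from heart development, was higher than sham at 6, 24 and 72 h. It measured 11, 10.1 and 10.0 CPM in sham, 7.96, 9.53 and 9.6 at 10 min, 7.96, 10.1 and 10.5 at 1 h, 35.0, 17.1 and 34.2 at 6 h, 25.4, 37.6 and 35.5 at 24 h, and 22.7, 29.5 and 24.4 at 72 h. Every mouse from 6 h on lay above every earlier one, with replicate 2 at 6 h the lowest of the later mice. The log2 fold change against sham was 1.47 ± 0.22 at 6 h (edgeR adjusted p = 0.00016), 1.66 ± 0.22 at 24 h (edgeR adjusted p = 2.84e-05) and 1.30 ± 0.22 at 72 h (edgeR adjusted p = 5.39e-05). The step from 1 to 6 h was 1.60 ± 0.22 (edgeR adjusted p = 0.000134), and later neighbours did not differ beyond their spread. Without replicate 2 at 6 h, 72 h was lower than 24 h (-0.37, edgeR adjusted p = 0.0365) and than 6 h (-0.44, edgeR adjusted p = 0.0215). With all mice, at 72 h minus 6 h the log2 difference was -0.17 (95% interval -0.58 to 0.24), but with library totals as the scale it was 0.54 and called (edgeR adjusted p = 0.0339).

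Tgfb3 followed another course, lower than sham at 6 h and far higher at 72 h. It measured 18.5, 17.2 and 19.9 CPM in sham, 17.9, 17.8 and 16.6 at 10 min, 15.5, 15.7 and 16.4 at 1 h, 13.1, 12.2 and 11 at 6 h, 16.9, 31.8 and 16.5 at 24 h, and 73.2, 77.2 and 88.9 at 72 h. The 6 h mice all lay below every other mouse and the 72 h mice above every other. Tgfb3 fell by 0.62 on the log2 scale at 6 h (SE 0.18, edgeR adjusted p = 0.0187), was not called at 24 h (0.24 ± 0.18) and rose 4.30-fold at 72 h (2.11 ± 0.18, edgeR adjusted p = 1.66e-08). The steps from 6 to 24 h (0.85 ± 0.18, edgeR adjusted p = 0.00252) and from 24 to 72 h (1.87 ± 0.18, edgeR adjusted p = 1.71e-07) were both called. The call at 6 h was lost without sham replicate 3 (-0.56, edgeR adjusted p = 0.0669) or without replicate 3 at 6 h (-0.55, edgeR adjusted p = 0.0663), and the difference was called without replicate 1 at 6 h and replicate 3 at 24 h (-0.68, edgeR adjusted p = 0.0139).

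As shares of the summed per-kilobase level of the 3 isoforms, a quantity inside each library that no scaling of libraries can alter, Tgfb2 held more at 6 and 24 h and Tgfb3 more at 72 h than in sham. In sham Tgfb1 held 48.3% ± 2.97 (SD, n = 3), Tgfb3 39.0% ± 2.52 and Tgfb2 12.8% ± 1.06. The Tgfb2 share was 27.3, 21.9 and 34.4% in the 6 h mice and 23.3, 25 and 22% in the 24 h mice, all above the sham mice at 12 to 14%. At 72 h it was 9.41, 11.2 and 9.05%, below all sham mice. The Tgfb3 share was 17.5, 26.8 and 18.9% at 6 h, below the sham range of 36.1 to 40.7%, and 51.9, 50.2 and 56.5% at 72 h, above it. Tgfb1 held 51.1% ± 4.24 at 6 h and 49.8% ± 10.8 at 24 h, overlapping sham, and 37.2% ± 2.43 at 72 h, below it. Each share that did not overlap sham had p = 0.1 in a two-sided exact permutation test, the smallest value that 3 mice against 3 allow, so none could pass 0.05. Per kilobase, Tgfb1 was above Tgfb3 in sham (6.79 ± 0.515 against 5.48 ± 0.396 CPM per kilobase) and below it at 72 h (16.6 ± 0.853 against 23.6 ± 2.41), without overlap of mice at either time. The lengths used were 5042 bases for Tgfb1, 5791 for Tgfb2 and 3383 for Tgfb3. If the transcripts present are shorter than that, the shares and this ranking would shift.

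**Figure D2:**
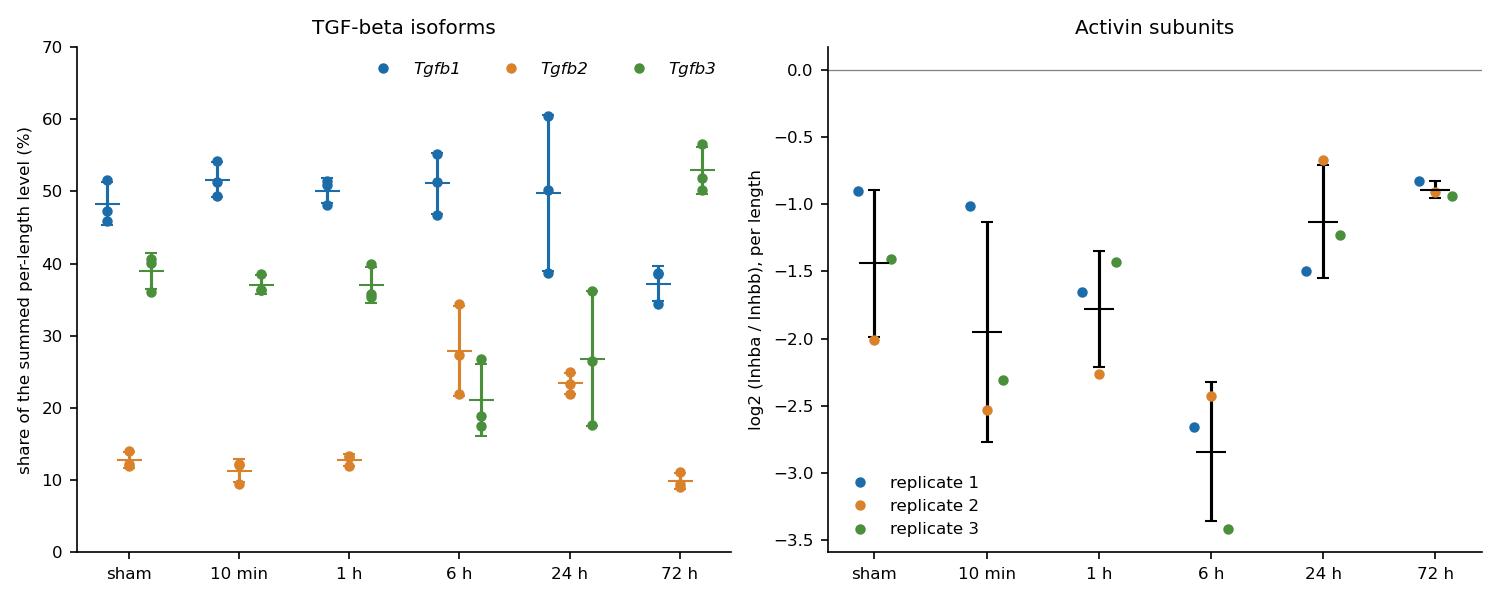
Left, share of each TGF-beta isoform in the summed per-length level (y axis, percent) by group (x axis); right, log2 ratio of Inhba to Inhbb per length. Points are libraries and bars the mean and SD of 3. Tgfb3 holds 50.2 to 56.5% of the sum in the 72 h mice against 36.1 to 40.7% in sham, and the activin ratio is lowest at 6 h.

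Ltbp2 encodes a matrix protein of the latent TGF-beta binding protein family that binds elastic fibre components and, unlike its relatives, is not known to hold latent TGF-beta. It had the widest range of the 10 genes, 76.1-fold between its lowest and highest group mean. It measured 2.83, 2.07 and 3.95 CPM in sham, 3.3, 2.64 and 2.68 at 10 min, 2.56, 1.78 and 2.45 at 1 h, 4.65, 3.06 and 2.5 at 6 h, 13.8, 24.4 and 28.7 at 24 h, and 163, 209 and 145 at 72 h. Sham and 6 h mice overlapped each other and both earlier groups after ligation, the 1 h mice lay just below the 10 min mice, and the 24 h and 72 h mice lay above all earlier ones without overlapping each other. The rise against sham was 7.47-fold at 24 h (log2 2.90 ± 0.29, edgeR adjusted p = 3.55e-06) and 57.7-fold at 72 h (log2 5.85 ± 0.30, edgeR adjusted p = 2.86e-10). Steps of 2.72 ± 0.29 from 6 to 24 h (edgeR adjusted p = 1.76e-05) and 2.95 ± 0.25 from 24 to 72 h (edgeR adjusted p = 1.54e-07) were of like size. At 6 h its log2 fold change of 0.18 ± 0.33 was not called, and it was -0.10 without the 2 libraries that stood apart. In sham it was near 0.361 CPM per kilobase, below every TGF-beta isoform, and at 72 h it reached 21.0 ± 4.04, overlapping the range of Tgfb3.

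Both receptor genes were higher from 6 h on, with the 24 h mice lower than the 6 h mice for Tgfbr2. Tgfbr2, the receptor that binds the ligand first, measured 60.9, 68.7 and 67.1 CPM in sham, 64.8, 74.2 and 68.3 at 10 min, 68.7, 68.7 and 65.4 at 1 h, 145, 143 and 133 at 6 h, 76.5, 79.3 and 95.5 at 24 h, and 136, 159 and 126 at 72 h. The 6 h and 72 h mice overlapped each other and lay above all the rest, and the 24 h mice lay between them and sham. The log2 fold change was 1.10 ± 0.10 at 6 h (edgeR adjusted p = 1.21e-06), 0.35 ± 0.10 at 24 h (edgeR adjusted p = 0.00872) and 1.10 ± 0.10 at 72 h (edgeR adjusted p = 2.89e-08). Between 6 and 24 h Tgfbr2 fell by 0.74 (SE 0.10, edgeR adjusted p = 6.59e-05), and between 24 and 72 h it rose by 0.75 ± 0.10 (edgeR adjusted p = 7e-06). Without replicate 3 at 24 h the 24 h call was lost (0.25, edgeR adjusted p = 0.0597). The difference between 72 and 6 h was 0.00 (95% interval -0.19 to 0.20) and became 0.69 and called with library totals as the scale (edgeR adjusted p = 1.27e-05).

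Tgfbr1, the kinase that phosphorylates the Smads, measured 16.8, 17.3 and 16.9 CPM in sham, 18.2, 19.6 and 17 at 10 min, 23.0, 22.0 and 16.0 at 1 h, 39.0, 29.7 and 25.9 at 6 h, 23.3, 22.7 and 30.4 at 24 h, and 58.2, 67.9 and 67.1 at 72 h. The sham mice lay close together, and from 6 h on every mouse lay above them. The log2 fold change was 0.89 ± 0.15 at 6 h (edgeR adjusted p = 0.00038), 0.58 ± 0.15 at 24 h (edgeR adjusted p = 0.00508) and 1.92 ± 0.15 at 72 h (edgeR adjusted p = 5.1e-09). The 6 h and 24 h groups overlapped and their difference was not called (-0.31 ± 0.15, edgeR adjusted p = 0.134), except without replicate 3 at 24 h (-0.45, edgeR adjusted p = 0.0359), and the step from 24 to 72 h was 1.34 ± 0.15 (edgeR adjusted p = 8e-07). Per kilobase, Tgfbr2 exceeded Tgfbr1 in sham, at 8.01 ± 0.502 against 2.60 ± 0.0397 CPM per kilobase, and at 72 h, at 17.1 ± 2.04 against 9.85 ± 0.821.

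Smad7, the inhibitor, and Smad3, the transducer, had different time courses. Smad7 measured 29.0, 31.1 and 32.8 CPM in sham, 36.1, 41.8 and 33.1 at 10 min, 56.2, 50.0 and 44.8 at 1 h, 84.6, 53.3 and 79.8 at 6 h, 32.6, 32.2 and 48.7 at 24 h, and 27.9, 30.1 and 27.0 at 72 h. The 10 min, 1 h and 6 h mice all lay above sham, and the 72 h mice overlapped it. The log2 fold change was 0.70 ± 0.17 at 1 h (edgeR adjusted p = 0.14), 1.23 ± 0.17 at 6 h (edgeR adjusted p = 6.49e-05), 0.29 ± 0.17 at 24 h (edgeR adjusted p = 0.18) and -0.13 ± 0.17 at 72 h (edgeR adjusted p = 0.511). At 1 h DESeq2 called it (0.71, adjusted p = 0.0227), and so did edgeR when only the 6 libraries compared were in the fit (adjusted p = 0.000289) or without the 2 libraries that stood apart (adjusted p = 0.00502), without replicate 2 at 6 h (adjusted p = 0.0303) or without replicate 3 at 24 h (adjusted p = 0.0218). Smad7 then fell by 0.94 between 6 and 24 h (SE 0.17, edgeR adjusted p = 0.000672). A further step of -0.42 to 72 h passed (edgeR adjusted p = 0.0469) but was lost in every alternative fit of all mice. At 72 h its sign against sham depended on the scale: with library totals it was 0.45 and called higher (edgeR adjusted p = 0.0191), as it was at 24 h (0.48, edgeR adjusted p = 0.0242).

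Smad3 measured 20.6, 18.2 and 16.2 CPM in sham, 23.1, 22.5 and 19.9 at 10 min, 19.4, 18.3 and 16.7 at 1 h, 21.0, 17.2 and 14.4 at 6 h, 16.5, 16.5 and 22.8 at 24 h, and 24.7, 27.4 and 26.5 at 72 h. Only the 72 h mice lay clear of the sham mice. Smad3 rose by 0.52 ± 0.14 at 72 h (edgeR adjusted p = 0.0033), the smallest called change of the 10 genes at that time. At 6 h its log2 difference was -0.07 (95% interval -0.35 to 0.22) and at 24 h 0.02 (-0.26 to 0.30). The step from 24 to 72 h was 0.50 ± 0.14 (edgeR adjusted p = 0.00614), and with library totals the step from 6 to 24 h was called as well (0.39, edgeR adjusted p = 0.0326).

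**Figure D3:**
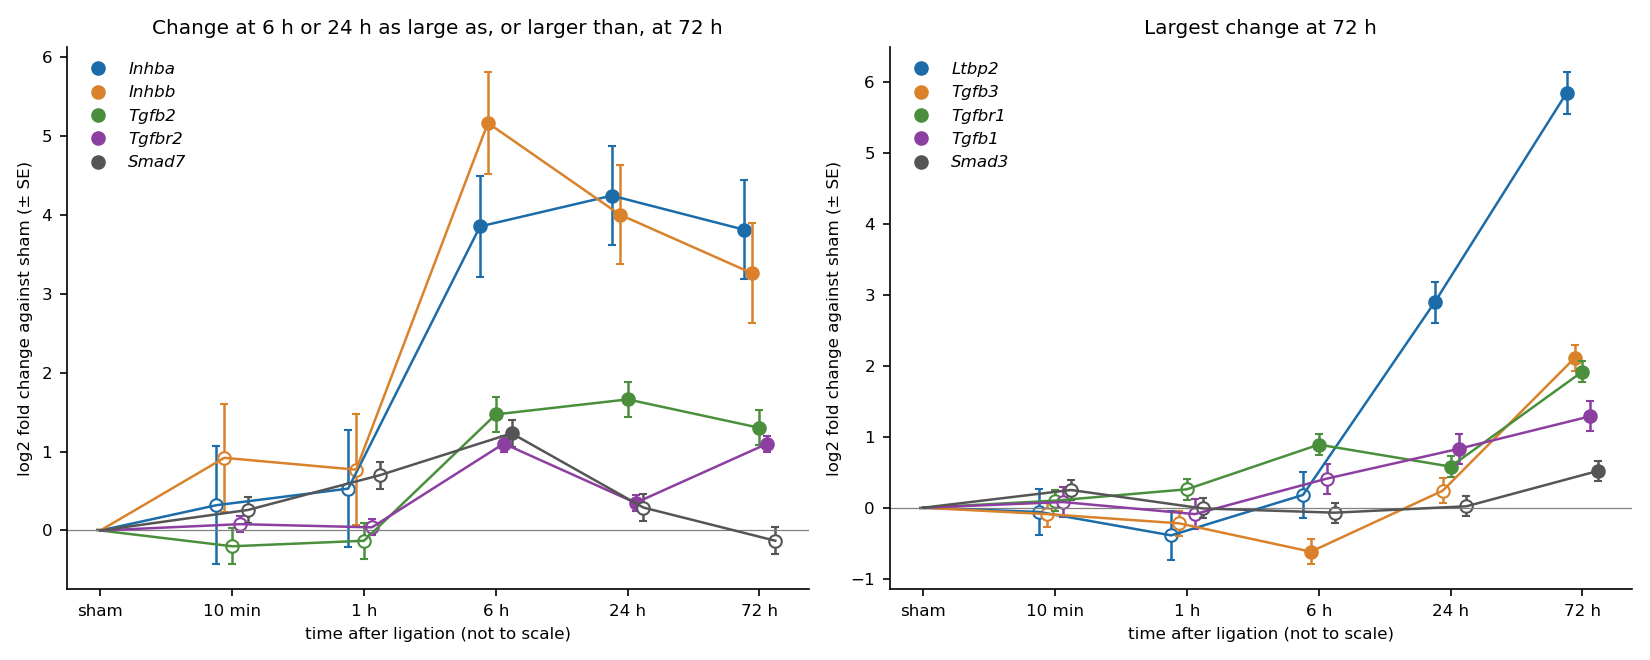
Log2 fold change against sham with its SE (y axis) at 5 times after ligation (x axis, not to scale), from the edgeR model; filled points were called and open points were not. Inhba and Inhbb lie at 3.26 or above from 6 h on, Smad7 returns to -0.13 at 72 h, and Ltbp2 reaches 5.85 at 72 h.

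The activin subunit genes had the largest changes at 6 h. Inhbb, which encodes the beta-B subunit, measured 2.02, 2.95 and 2.22 CPM in sham, 2.68, 5.71 and 5.02 at 10 min, 5.07, 2.9 and 4.2 at 1 h, 135, 57.3 and 65.7 at 6 h, 26.0, 13.6 and 76.4 at 24 h, and 18.3, 29.7 and 20.9 at 72 h. From 6 h on every mouse lay above every mouse of the first 3 groups. The rise was 35.9-fold at 6 h (log2 5.16 ± 0.65, edgeR adjusted p = 0.000103), 16.0-fold at 24 h (4.0 ± 0.63, edgeR adjusted p = 0.000295) and 9.58-fold at 72 h (3.26 ± 0.63, edgeR adjusted p = 0.000426). The 72 h level was below that of 6 h by -1.90 ± 0.52 on the log2 scale (edgeR adjusted p = 0.00576), with no overlap between their mice; with library totals as the scale this was -1.19 and not called (edgeR adjusted p = 0.0508).

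Inhba, which encodes the beta-A subunit, measured 1.62, 1.09 and 1.24 CPM in sham, 1.99, 1.47 and 1.51 at 10 min, 2.41, 0.888 and 2.33 at 1 h, 32.2, 15.9 and 9.21 at 6 h, 13.8, 12.8 and 48.8 at 24 h, and 15.4, 23.7 and 16.4 at 72 h. The sham values rest on 32, 21 and 28 counts. Again every mouse from 6 h on lay above every earlier one. The rise was 14.4-fold at 6 h (log2 3.85 ± 0.64, edgeR adjusted p = 0.000657), 18.9-fold at 24 h (4.24 ± 0.63, edgeR adjusted p = 0.000175) and 14-fold at 72 h (3.81 ± 0.63, edgeR adjusted p = 0.000105). The 3 later times overlapped and were not told apart by the test, with a difference of -0.04 between 72 and 6 h (95% interval -1.02 to 0.94).

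Within the 6 h and 24 h groups both subunits were highest in the library with the highest neutrophil sum. At 6 h this was replicate 1, with 733 CPM of neutrophil markers, against 259 and 96.6 in replicates 2 and 3; at 24 h it was replicate 3, with 652 CPM against 152 and 35.1. Between replicates 2 and 3 at 6 h, Inhbb ran against the neutrophil order, at 57.3 and 65.7 CPM. Neutrophil markers did not stand alone. The same libraries had the highest macrophage and monocyte sums (275 and 741 CPM), endothelial and platelet sums and the lowest cardiomyocyte sums of their groups. Fibroblast and mural sums were highest in the 6 h library but lowest in the 24 h library. Without each of these libraries the log2 fold changes were still called: at 6 h 3.25 for Inhba (edgeR adjusted p = 0.00253) and 4.68 for Inhbb (edgeR adjusted p = 0.000325), and at 24 h 3.34 for Inhba (edgeR adjusted p = 0.000178) and 3.04 for Inhbb (edgeR adjusted p = 0.000441). The 72 h mice, with 45 to 55.7 CPM of neutrophil markers, had Inhba at 15.4 to 23.7 CPM, within the range of the 6 h mice, and Inhbb at 18.3 to 29.7 CPM, below every 6 h mouse. Without replicate 3 at 24 h, Inhbb was also called lower at 24 h than at 6 h (-2.12, edgeR adjusted p = 0.0037), where with all mice it was not (-1.16 ± 0.51, edgeR adjusted p = 0.109).

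**Figure D4:**
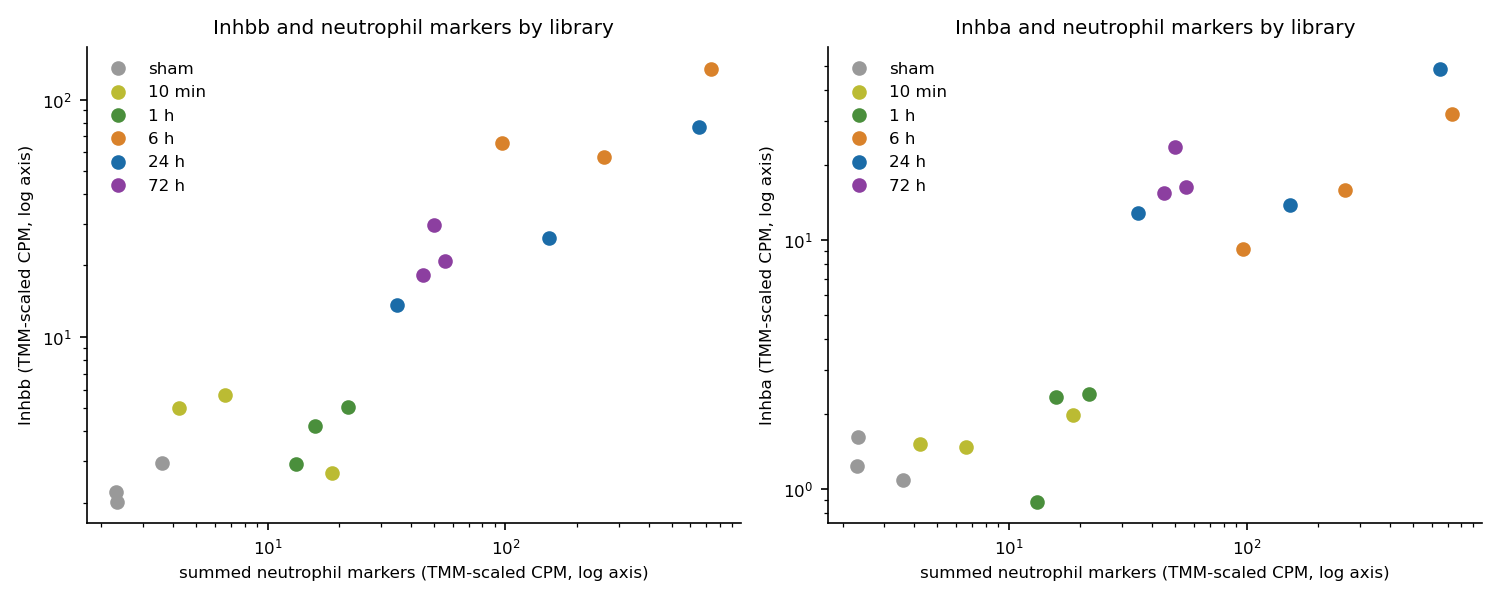
Inhbb (left) and Inhba (right) in each of 18 libraries (y axis, TMM-scaled CPM, log axis) against the summed level of 5 neutrophil markers (x axis, log axis), coloured by group. At 6 h and at 24 h the library with the highest marker sum, 733 and 652 CPM, has the highest level of both subunits. The same libraries are also highest in their groups in macrophage and monocyte, endothelial and platelet markers.

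Per kilobase, Inhba was below Inhbb in every group mean. The log2 ratio of Inhba to Inhbb was -1.44 ± 0.55 (SD, n = 3) in sham, -2.84 ± 0.52 at 6 h, -1.13 ± 0.42 at 24 h and -0.89 ± 0.06 at 72 h. The 6 h mice, at -2.66, -2.43 and -3.42, lay below the sham mice, at -0.90, -2.01 and -1.41 (two-sided exact permutation p = 0.1, the smallest possible), and the 24 h and 72 h mice overlapped sham. At 6 h Inhbb reached 20.2 ± 10.0 CPM per kilobase, close in mean to Tgfbr2 at 17.1 ± 0.777 and overlapping it.

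The wider pathway was read from a list of 56 genes by role, of which 52 were tested; Acvr1c, Inhbe and Mstn were removed by the filter on low counts, and Inhbc was not analysed here. At 10 min and at 1 h edgeR called 0 of the 52; at an unadjusted p under 0.05 there were 4 and 6, and DESeq2 called 1 and 3. At 6 h 18 were higher and 4 lower (42.3% called), at 24 h 27 and 5 (61.5%), and at 72 h 34 and 11 (86.5%), beside 28.4%, 43.8% and 66.4% of all genes. Without the 2 libraries that stood apart, 23, 28 and 48 of the list were called, beside 23.5%, 35.5% and 69.1% of all genes. The split of directions depended on the scale: with library totals it was 16 higher and 7 lower at 6 h, 31 and 3 at 24 h, and 42 and 1 at 72 h. Its median log2 fold change was 0.24, 0.48 and 1.17 at the 3 times, where all genes had -0.01, 0.01 and 0.03.

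Of 13 genes for latency and activation, 4 were higher and 2 lower at 6 h, 7 and 3 at 24 h, and 10 and 3 at 72 h. That is 46.2%, 76.9% and 100% called, beside 28.4%, 43.8% and 66.4% of all genes. Thbs1, the thrombospondin that can activate latent TGF-beta, measured 6.06, 5.65 and 7.81 CPM in sham, 618, 245 and 205 at 6 h, 150, 76.0 and 712 at 24 h, and 203, 314 and 233 at 72 h. The log2 difference from sham was 5.77 ± 0.96 at 6 h (edgeR adjusted p = 0.00086) and 5.26 ± 0.95 at 72 h (edgeR adjusted p = 0.000263). Its highest mice at 6 and 24 h were replicates 1 and 3, the libraries that stood apart. Itgb6, a subunit of the integrin that activates the latent complex in epithelia, was 13.6 CPM in sham and 5.05, 4.53 and 6.97 CPM at 6, 24 and 72 h, with log2 fold changes of -1.43, -1.57 and -0.97 (edgeR adjusted p = 0.00229, 0.000622 and 0.00709). The last of these was -0.38 and not called with library totals (edgeR adjusted p = 0.238).

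Of 8 other receptors and co-receptors, 2 were higher at 6 h, 1 higher and 1 lower at 24 h, and 1 higher and 4 lower at 72 h. These shares of 25%, 25% and 62.5% called were below the 28.4%, 43.8% and 66.4% of all genes. Tgfbr3, or betaglycan, which presents TGF-beta2 to TGFBR2, measured 44.1, 51.7 and 43.8 CPM in sham, 57.4, 67.9 and 55.4 at 6 h and 25.3, 23.9 and 19.6 at 72 h. It rose by 0.37 ± 0.13 at 6 h (edgeR adjusted p = 0.0429; not called with library totals, 0.27, adjusted p = 0.144) and fell by 1.02 at 72 h (SE 0.13, edgeR adjusted p = 2.44e-06), opposite in direction to Tgfbr1 and Tgfbr2 at 72 h. With library totals Tgfbr3 was the 1 gene of the list still called lower at 72 h (-0.43, edgeR adjusted p = 0.00774). Acvr2b, an activin type II receptor, was 3.88 CPM in sham and 1.78 CPM at 72 h (-1.12, edgeR adjusted p = 0.00024; with library totals -0.55, adjusted p = 0.0516). Acvr1, a type I receptor of the bone morphogenetic protein branch, rose from 12.9 to 20.5 CPM at 72 h (0.66 ± 0.10, edgeR adjusted p = 1.86e-05). Bambi, a decoy receptor, was 14.1 CPM in sham and 20.8 CPM at 24 h (0.56 ± 0.18, edgeR adjusted p = 0.0194), with overlapping mice.

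Of 5 activin relatives and binders, 2 were higher and 1 lower at 6 h, 3 and 1 at 24 h, and 4 and 1 at 72 h. Called were thus 60%, 80% and 100%, where all genes had 28.4%, 43.8% and 66.4%. Fst, or follistatin, had 5, 3 and 2 counts in the sham mice, which is too few for a stable fold, and 71, 45 and 40 counts at 6 h, or 0.166 and 2.84 CPM in the mean (edgeR adjusted p = 2.25e-05). Fst passed the filter on low counts only with the libraries from 6 h on. Its p and its calls, counted above, are therefore not independent of its higher level there. Fstl3, a follistatin relative that binds activins, measured 2.02, 2.18 and 2.04 CPM in sham and 24.2, 26.4 and 30.1 at 24 h, a log2 rise of 3.69 ± 0.25 (edgeR adjusted p = 4.6e-08). Fstl1 rose from 92.2 ± 13.3 to 930 ± 67.7 CPM at 72 h (3.33 ± 0.16, edgeR adjusted p = 1.01e-11). Inha, the inhibin alpha subunit, which pairs with the beta subunits to form inhibins, was 6.22 CPM in sham, 3.64 at 24 h and 3.07 at 72 h (-0.77 and -1.02, edgeR adjusted p = 0.0223 and 0.00193); with library totals it was -0.57 and -0.44, neither called. Gdf11 was 3.47 CPM in sham and 2.01 CPM at 6 h (-0.79 ± 0.19, edgeR adjusted p = 0.00521), but 6.7 CPM and higher than sham at 72 h (0.95 ± 0.18, edgeR adjusted p = 0.000111).

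Of 6 other Smads, 2 were higher at each of 6, 24 and 72 h, and 1 was lower at 72 h. With 33.3%, 33.3% and 50% called, they were near or below the 28.4%, 43.8% and 66.4% of all genes. Smad1, of the bone morphogenetic protein branch, was 16.4 CPM in sham, 38.4 at 6 h, 21.8 at 24 h and 27.7 at 72 h (log2 fold changes 1.23, 0.41 and 0.76, edgeR adjusted p = 9.7e-06, 0.0229 and 9.13e-05). Smad9, also of that branch, was 2.41 CPM in sham and 1.02 at 72 h (-1.24 ± 0.37, edgeR adjusted p = 0.00659; -0.65 and not called with library totals). Of 8 negative regulators, 3 were higher at 6 h, 4 at 24 h and 5 at 72 h; 2 at that last time were lower, of which Nedd4l, a ubiquitin ligase, was -0.50 (edgeR adjusted p = 0.000291) but 0.09 with library totals. Tgif1, a repressor of Smad transcription, rose from 3.7 CPM in sham to 9.08, 12.2 and 20.5 CPM at 6, 24 and 72 h (1.29, 1.71 and 2.47, edgeR adjusted p = 0.00294, 0.00017 and 6.15e-07).

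Of 12 genes known as targets of the pathway, 5 were higher and 1 lower at 6 h, 10 higher at 24 h and 12 of 12 higher at 72 h, with a median log2 fold change of 0.46, 2.82 and 5.04. The shares called were 50%, 83.3% and 100%, beside 28.4%, 43.8% and 66.4% of all genes. Col3a1, a fibrillar collagen, was 135 CPM in sham and 75.9 CPM at 6 h (-0.83 ± 0.22, edgeR adjusted p = 0.00822), but 5060 CPM at 72 h (5.23, edgeR adjusted p = 2.1e-11). Timp1, an inhibitor of matrix metalloproteinases, was 1.69 CPM in sham and 174 CPM at 24 h (6.68 ± 0.35, edgeR adjusted p = 2.18e-08). Cthrc1, a matrix protein of activated fibroblasts, had 2, 1 and 5 counts in the sham mice and 3688, 4425 and 3983 at 72 h, or 0.125 and 126 CPM in the mean (edgeR adjusted p = 2.18e-13). Cthrc1 passed the filter on low counts only through the 24 h and 72 h libraries. Its p and its calls, counted above, are therefore not independent of its high level there. Postn, Acta2 and Cthrc1 are also the 3 myofibroblast markers, whose sum moved from 113 to 168 CPM in sham to 1960 to 2100 CPM at 72 h, and the part of cell makeup in these target levels was not tested.

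**Figure D5:**
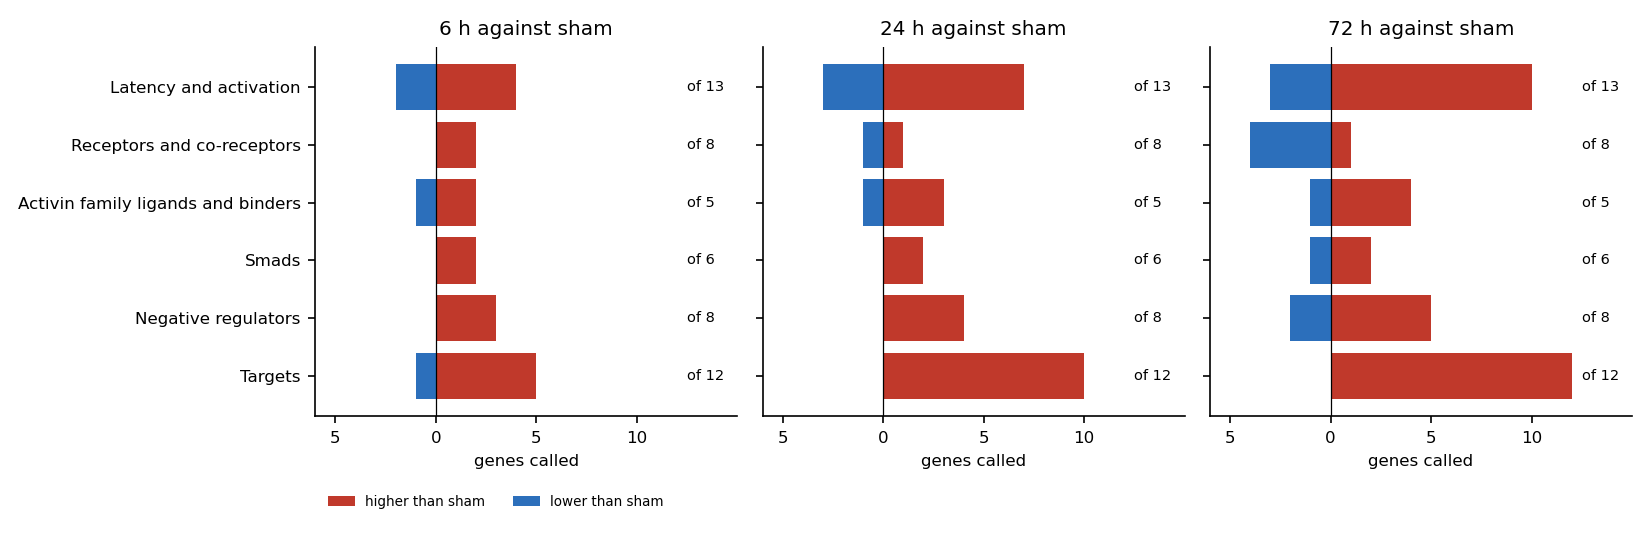
Number of genes of the wider list called higher (right, red) or lower (left, blue) than sham (x axis) by role (y axis) at 6, 24 and 72 h, with the number tested beside each bar; TMM scaling, edgeR adjusted p under 0.05. Targets go from 5 higher at 6 h to 12 of 12 at 72 h, and receptors and co-receptors have 4 lower at 72 h, of which 1 is still called lower with library totals as the scale. Over all genes, 28.4%, 43.8% and 66.4% were called at 6, 24 and 72 h.

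Among the 10 genes themselves, the highest correlation of log2 CPM over the 18 libraries was that of Inhba with Inhbb (Pearson r = 0.92) and the lowest that of Tgfb3 with Smad7 (r = -0.66). Such values describe 18 libraries that share 6 group means, and no p is given. By the same measure over all genes tested, the gene most like Ltbp2 was Tspo (r = 0.995, Spearman rho = 0.872), with Ctsz and Tmsb10 next. Srpx2 was most like Tgfb3 (r = 0.99, rho = 0.882) and Slc15a3 most like Tgfb1 (r = 0.979, rho = 0.944). Srm was most like Tgfb2 (r = 0.968, rho = 0.963). For the receptors, Nnmt was most like Tgfbr1 (r = 0.975) and Il33 most like Tgfbr2 (r = 0.946). Il33 had 3.82 CPM in sham and 25.8, 6.21 and 24.9 CPM at 6, 24 and 72 h, beside 140, 83.8 and 140 CPM for Tgfbr2. Abra, Spry2 and Spry4 were most like Smad7 (r = 0.938, 0.931 and 0.919); Spry4 had 16.0 CPM in sham, 64.5 at 6 h and 13.1 at 72 h. Il1rn, Cd44 and Ccr1 were most like Inhba (r = 0.99, 0.983 and 0.982) and Cblb, Selp and Plaur most like Inhbb (r = 0.976, 0.972 and 0.972). Gabpb2 was most like Smad3, with the lowest value of the 10 best matches (r = 0.89).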

How the data were processed

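Poly(A)-selected RNA of 18 mice, 3 in each of 6 groups, was sequenced, and groups were taken from the sample labels. Per the submitters' processing notes, cutadapt 1.18, HISAT2 2.1.0, featureCounts and the build mm10 were used; further settings and the use of strand are not given in the sources used here. The authors deposited whole-number counts for 30583 genes and FPKM values for the same libraries. The series and sample tables differed in 0 values. At 6 h, the FPKM columns of replicates 2 and 3 each followed the counts of the other. Whether the FPKM or the count columns carry the wrong label cannot be told, and replicate numbers here are those of the counts. FPKM was used for gene lengths (equal to GENCODE M21 exon lengths for 28042 of 30512 genes, 91.9%) and for 1 alternative test. Libraries held 18.2 to 25.1 M (mega) counts, and with no molecular identifiers described, reads are not all independent molecules.

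The tests used edgeR 4.0.16 (R 4.3.3) on the counts: filterByExpr removed 14272 genes, libraries were scaled by TMM (factors 0.825 to 1.43), and glmQLFit (robust, 1 mean per group) and glmQLFTest, two-sided, gave p-values that were adjusted over 16311 genes with a threshold of 0.05. The biological coefficient of variation came to 0.149. Contrasts were those of every time with sham, of consecutive times, and, added after seeing the data, of 72 h with 6 h. Intervals of 95% are the estimate with its normal-theory SE. Shares of isoforms and the subunit ratio (prior count 0.5) were compared by exact permutation. Alternatives were scaling by RLE or library totals, other filters, DESeq2 1.42.0, limma 3.58.1 on log2(FPKM + 1) with a pseudocount of 1, only the 6 libraries compared, a replicate block and each library left out. The model was also run on simulated data with known changes in a small set of genes, as many up as down, and the same spread for every gene. That setting lacks the wide change at 72 h and the libraries that stood apart, so it cannot speak to them. Replicates of a group were checked for duplicates, and none differed by as little as sampling noise. The members, gene lists and marker lists were chosen with earlier results of these data known. Named genes are the 10 members, the called pathway gene with the largest rise and fall per role at 6, 24 and 72 h, and the 3 genes with symbols most correlated with each member (1 to 3 are printed); Postn and Acta2 are named as markers. One gene that this rule names is not reported here. The windows of Tgfbr1, Tgfbr2, Smad3 and Ltbp2 are not printed.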

Additional observations from a re-analysis of the deposited data

Results flagged for a closer look

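Between consecutive times after ligation, 16 differences of the members passed the test (edgeR, adjusted p under 0.05), so the change from sham was not the same at both times; each pair shares the sham mice, and the test is of the 2 ligation groups against each other. From 1 to 6 h the log2 level rose by 1.60 for Tgfb2, 0.63 for Tgfbr1, 1.05 for Tgfbr2, 0.53 for Smad7, 3.32 for Inhba and 4.39 for Inhbb. From 6 to 24 h the differences were 0.85 for Tgfb3, -0.74 for Tgfbr2, 2.72 for Ltbp2 and -0.94 for Smad7. From 24 to 72 h they were 1.87 for Tgfb3, 1.34 for Tgfbr1, 0.75 for Tgfbr2, 2.95 for Ltbp2, 0.50 for Smad3 and -0.42 for Smad7. Beside these, 24.5%, 27.8% and 50.5% of all genes were called in the same 3 contrasts. From 10 min to 1 h edgeR called 0 members and 0.307% of all genes, with 1 member, Smad7, at an unadjusted p under 0.05 and 0 by DESeq2.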

How the results depend on the processing

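Against sham, 1321 of 1350 alternative values of the members kept direction and call, 4 lost the call, 8 gained it, 2 reversed and 15 changed sign while uncalled; between times these were 1255, 27, 25, 2 and 41 of 1350. The reversals were Smad7 at 72 h against sham, 0.45 with library totals and 0.40 with limma on log2(FPKM + 1), and Tgfb2 at 72 h against 6 h, 0.54 and 0.48 in the same order. Both settings scale by library totals alone. RLE scaling and DESeq2, which also leave out TMM but scale beyond library totals, had 0 reversals against sham. The cause of the reversals was not tested. Members called at 1 h numbered 1 with DESeq2, with only the 6 libraries compared and without the 2 libraries that stood apart, and 0 to 1 with each library left out; from 10 min to 1 h there was 1 with only the 6 libraries. The pathway list had at 10 min 1 call with DESeq2 and 2 with only the 6 libraries, and at 1 h 1 with no filter, 3 with DESeq2, 4 with only the 6 libraries, 1 without the 2 libraries that stood apart and 0 to 1 with each library left out; the causes were not tested. The Smad7 steps were the least stable: that from 24 to 72 h was lost with every other scaling, filter, test and fit and in 9 fits with a library left out, and that from 1 to 6 h with library totals, with limma, with only the 6 libraries and in 4 fits with a library left out. The Tgfb3 step from 6 to 24 h was lost with only the 6 libraries (edgeR adjusted p = 0.0801). Of all genes, 12 were called at 10 min, and 26 with no filter, 58 with DESeq2, 360 with only the 6 libraries, 2 with limma, 53 without the 2 libraries that stood apart and 0 to 24 with each library left out. At 1 h 48 were called, and 95 with DESeq2, 190 with only the 6 libraries, 108 without those 2 libraries and 31 without sham replicate 2; from 10 min to 1 h the 50 calls became 125, 244 and 167 in the same 3 settings and 6 to 87 with a library left out. From 6 to 24 h there were 4541, and 6880 with library totals and 1024 with only the 6 libraries. At 6 h 4639 were called and 2926 without replicate 1 at 6 h, and from 1 to 6 h 4004, with 2482 without that library and 2664 without replicate 2 at 1 h. With library totals 40.6%, 75.5% and 79.9% of the genes called at 6, 24 and 72 h lay above sham, against 57.2%, 54% and 51.4% with TMM. Whether the replicate numbers pair the samples was not settled. Over 45 pairs with the same number the correlation of deviations ran from -0.26 to 0.25, with 4 over 0.1, and 9 of 18 libraries correlated best with their own number. Deviations from means of 3 mice cannot exclude a pairing. With a replicate block the members called against sham numbered 7, 7 and 9 at 6, 24 and 72 h, beside 27.8%, 43.5% and 66.1% of all genes, and between times the Smad7 step from 24 to 72 h was lost (-0.41, edgeR adjusted p = 0.0652). Low counts limit Inhba, Inhbb and Ltbp2 before 6 h.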
